A study of Homo sapiens with 4 samples.

Results

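The type I interferon receptor to ISGF3 chain was examined as 9 genes: the receptor chains *IFNAR1*, *IFNAR2* and *IL10RB*, the kinases *JAK1* and *TYK2*, the ISGF3 subunits *STAT2* and *IRF9*, the transcription factor *IRF7* and the inhibitor *SOCS3*. They were chosen by symbol, and all 9 were found among the 57820 genes of the deposited count table. The 4 RNA-seq libraries came from SK-N-SH, an established human neuroblastoma line. In 2 libraries the cells had been transduced with a lentivirus that carried the lncRNA *RP5-998N21.4* behind the EF1a promoter (*RP5-998N21.4* OE), and in the other 2 with the empty lentivirus (vector control, VC). They are called OE1, OE2, VC1 and VC2 by their replicate numbers. The control libraries are titled WT, whereas their treatment label names the empty vector, which was followed here, so that all 4 libraries came from virus-transduced cells. Neither the labels nor the methods say whether the libraries of a condition came from separate transductions, so the p-values measure the spread between these libraries, which may be technical.

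Type I interferons bind a receptor made of IFNAR1 and IFNAR2. The kinases TYK2 and JAK1 are bound to these chains and phosphorylate STAT proteins, of which STAT2 joins IRF9 in the complex ISGF3. ISGF3 binds the interferon-stimulated response element (ISRE) in the promoters of antiviral genes, and genes of the chain, *IRF7* among them, are themselves known interferon targets. IL10RB is a shared chain of the receptors for interleukin 10, interleukin 22 and the lambda interferons, and SOCS3 inhibits JAK kinases, chiefly below receptors that use the gp130 chain.

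Library totals ranged from 23785164 to 28307591 counts. Values are given in counts per gene, summed over its transcripts, and in CPM, counts scaled to a common library size with edgeR's TMM factors. The overexpressed transcript itself measured 1.39 ± 0.0213 CPM in VC and 96.5 ± 0.816 CPM in OE (SD, n = 2 each). Of 10 adrenergic neuroblastoma markers, 9 had counts and *TH* was at 0 in all libraries. These 9 markers were all higher in both OE libraries than in both vector control libraries, with a summed level of 460.0 to 528.0 CPM in the vector control and 865 to 908 CPM in the OE libraries. Of 6 mesenchymal-type markers, all with counts, 4 were lower in both OE libraries than in both vector control libraries (*CD44*, *SNAI2*, *PRRX1* and *YAP1*). Among all genes tested, 27.8% were higher and 27.6% were lower in this way. *CD44*, for example, was at 612.7 and 564.5 CPM in the vector control and at 354.4 and 365.0 CPM in the OE libraries, whereas *VIM* stood at 1254 CPM in OE1 against 348.3 to 375.8 CPM in the other 3 libraries. *FN1* overlapped between the conditions, at 385.6 and 332.4 CPM in the vector control and 362.1 and 337.2 CPM in the OE libraries. The part of these markers in the values below was not tested. Of 8 immune cell markers, 5 were at 0 in all libraries and *PTPRC* had at most 4 counts. The summed level of that list was 11.2 to 11.4 CPM in the vector control and 0.677 to 5.67 CPM in the OE libraries, most of it from *CD68* except in OE1, where *CD68* had 2 counts and *CD14* had 15. In bulk RNA, fewer cells of a type and less RNA per cell cannot be told apart.

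*STAT2*, the ISGF3 subunit that activates transcription, was slightly higher in the *RP5-998N21.4* OE libraries, with a log2 fold change of 0.28, and *IRF7* was 1.5-fold higher. *IL10RB* was lower, at 0.669 of its vector control level, and *SOCS3* was at 0.778 of it. *IRF9* was lower by its own counts, but it had at most 24 counts in any library, while a gene model that runs through *IRF9* held far more counts and lay in the opposite direction. *IFNAR1* was 3.17-fold higher on average because of OE2 alone. None of the 9 genes passed the study's thresholds, a log2 fold change beyond 0.5 in either direction with an adjusted p below 0.01, when 20528 genes were tested with edgeR (quasi-likelihood, Benjamini-Hochberg). The overexpressed *RP5-998N21.4* did not pass either, with a log2 fold change of 6.11 and an edgeR adjusted p of 0.0109. A gene that did not pass is thus not shown to be unchanged.

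The test called 0.0% of all genes at these thresholds, and 0.594% (0.283% higher and 0.312% lower) at an adjusted p below 0.05, where again 0 of the 9 genes passed. At an unadjusted p under 0.05, 1 of the 9 genes was higher (*STAT2*) and 3 were lower (*IL10RB*, *IRF9* and *SOCS3*), against 10.1% higher and 10.7% lower among all genes tested. With *IRF9* summed with the gene model that runs through it, the lower genes were 2. In 6 of the 9 genes the conditions did not overlap, 2 higher and 4 lower, against 55.4% of all genes, 27.8% higher and 27.6% lower. The number of genes without overlap was thus near the background. With the sum for *IRF9*, 3 were higher and 3 were lower. The median log2 fold change of the 9 genes was -0.13, or 0.04 with the sum for *IRF9*, and that of all genes tested was 0.01. DESeq2, the tool the study's methods name, called by its Wald test 8.77% of all genes at the same thresholds (4.35% higher and 4.42% lower). It called 1 of the 9 genes, *IL10RB*, with an adjusted p of 0.000519. In that test *STAT2* (adjusted p = 0.000191) and *SOCS3* (adjusted p = 8.28e-06) passed the limit on p but not that on the fold change. With 2 libraries against 2, an exact permutation test of a single gene cannot give a two-sided p below 0.333.

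**Figure D1:**
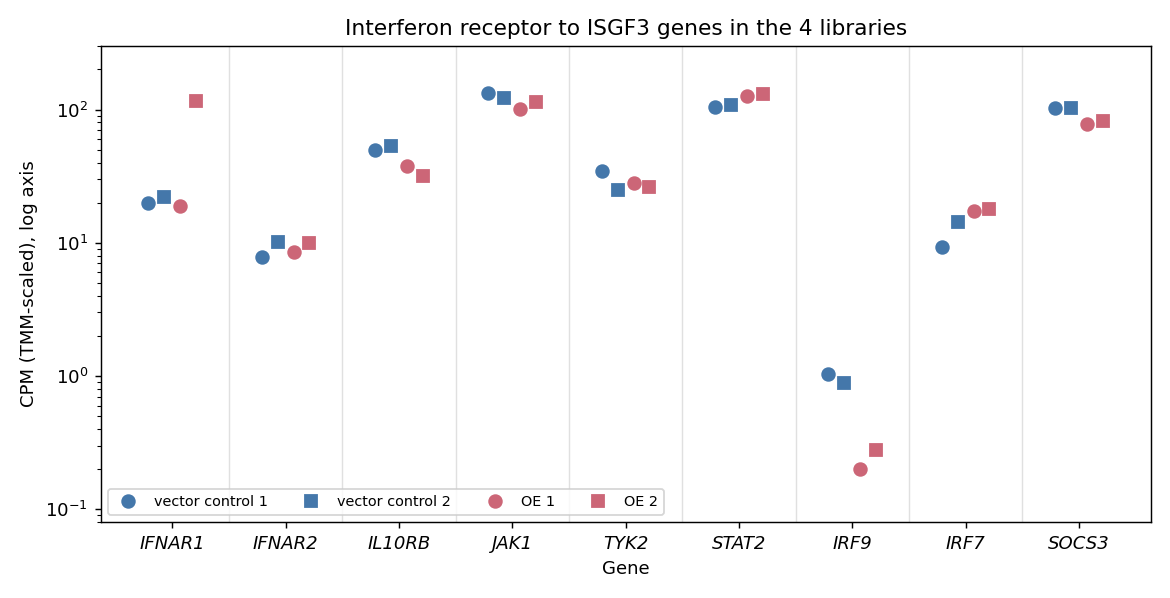
Level of each gene in CPM (TMM-scaled, log axis) in the 4 libraries, blue for vector control and red for OE, circles for replicate 1 and squares for replicate 2. *IFNAR1* in OE2 lies at 115 CPM, above the other 3 libraries at 18.7 to 22.2 CPM, and *IRF9* lies near 1 CPM in the vector control and below 0.3 CPM in the OE libraries.

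*IFNAR1* (ENSG00000142166.8), the chain that TYK2 binds, lies on chromosome 21 (hg19, plus strand, 34696692 to 34732170). It had 466 counts in VC1, 521 in VC2, 470 in OE1 and 3332 in OE2, or 20.01, 22.2, 18.7 and 115 CPM. The first OE library lay below both vector control libraries and the second far above them, so that the OE libraries differed 6.15-fold from each other. Its log2 fold change was 1.67 (SE 0.932, edgeR adjusted p = 0.399). Without OE2 it was -0.17.

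Which transcript of *IFNAR1* held the counts differed between libraries. In OE2, all 3332 counts were on ENST00000270139.3, the MANE Select transcript (the representative transcript agreed by Ensembl and RefSeq) with a length of 6075 nt. In the other 3 libraries that transcript had 0 counts, and all counts were on ENST00000416947.2. The length of ENST00000416947.2 is not given in the annotation used here. The high level of *IFNAR1* in that library therefore came with a change of the transcript that held the counts.

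*IFNAR2* (ENSG00000159110.15), the chain that binds interferon most tightly and is associated with JAK1, lies on the plus strand of the same chromosome from 34577587 to 34637980. It had 183 counts in VC1, 237 in VC2, 214 in OE1 and 287 in OE2. In CPM these were 7.86, 10.1, 8.53 and 9.92, with overlap between the conditions. The log2 fold change of 0.04 (SE 0.198, edgeR adjusted p = 0.932) was smaller than the spread between replicates, and it was -0.13 without VC1 and -0.07 without OE2. At least 97.2% of its counts in every library were on ENST00000382264.3, of 1389 nt. The MANE Select transcript ENST00000342136, of 4074 nt, had 0 counts in all 4 libraries. The antisense gene *IL10RB-AS1* shares 1803 exon bases with *IFNAR2*, and without knowledge of the strand used in counting the reads of both cannot be told apart. It had from 115 to 230 counts and a log2 fold change of 0.06.

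*IL10RB* (ENSG00000243646.4) lies between *IFNAR2* and *IFNAR1*, on the plus strand from 34638672 to 34683725. It had 1158 counts in VC1, 1253 in VC2, 938 in OE1 and 912 in OE2. The mean was 51.5 ± 2.54 CPM in VC and 34.5 ± 4.14 CPM in OE (SD, n = 2 each), with both OE libraries below both vector control libraries. With a log2 fold change of -0.58 (SE 0.129, unadjusted p = 0.0125, edgeR adjusted p = 0.138), the difference was larger than the spread between replicates but did not pass the adjustment. Its range was -0.71 to -0.46 when any 1 library was omitted. Unlike those of *IFNAR1*, its counts stayed on the MANE Select transcript ENST00000290200.2, which held at least 97.7% of them in every library. The readthrough gene that spans *IFNAR2* and *IL10RB* (*AP000295.9*) had 0 counts in all libraries. *IFNGR2*, a chain of the interferon gamma receptor encoded beside them, had a log2 fold change of -0.09 (edgeR adjusted p = 0.613).

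**Figure D2:**
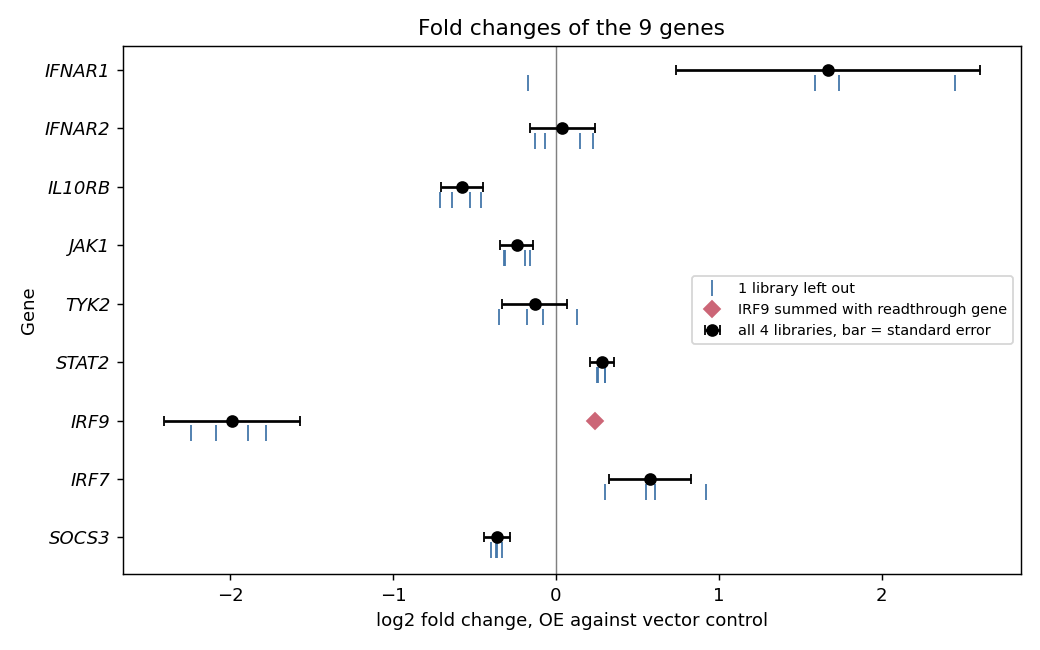
Log2 fold change of OE against vector control for each gene (black, bar = standard error of edgeR's fit), the 4 values with 1 library left out (blue ticks) and *IRF9* summed with the readthrough gene that covers its exons (red diamond). *IFNAR1* runs from -0.17 to 2.45 with a library left out, and *IRF9* moves from -1.99 to 0.24 with the sum.

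*JAK1* (ENSG00000162434.7), the kinase of IFNAR2 and of many other cytokine receptors, lies on chromosome 1 (minus strand, 65298906 to 65533437). It had 3081 counts in VC1, 2859 in VC2, 2546 in OE1 and 3281 in OE2. Because OE2 was the deepest library, its level of 113 CPM still lay below the 132 and 122 CPM of the vector control, as did the 101.5 CPM of OE1. The difference, -0.24 on the log2 scale (SE 0.101, edgeR adjusted p = 0.295), did not pass. The MANE Select transcript held at least 99.6% of the counts in every library. *RP11-182I10.3*, a non-coding gene on the same strand that shares 647 exon bases with *JAK1*, had at most 17 counts, and the sum of *JAK1* with its same-strand overlapping genes had the same log2 fold change. The other of these genes, *RP4-535B20.1*, had 0 counts. *RAVER2*, an RNA-binding protein gene on the opposite strand, shares 10 exon bases with *JAK1* and had from 752 to 1182 counts.

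*TYK2* (ENSG00000105397.9), the kinase of IFNAR1, lies on chromosome 19 (minus strand, 10461209 to 10491284). It had 804 counts in VC1, 582 in VC2, 704 in OE1 and 758 in OE2, or 34.5, 24.8, 28.1 and 26.2 CPM. Both OE libraries lay between the vector control libraries. On the log2 scale the difference was -0.13 (SE 0.2, edgeR adjusted p = 0.766) and was 0.13 without VC1. Its counts were spread over transcripts in a way that followed neither condition. The MANE Select transcript ENST00000525621.1 held 622 and 644 counts in VC1 and OE2, but 40 and 79 counts in the remaining libraries. In these, ENST00000264818.6 held 457 and 556 counts, against 0 in the others. The gene total, from 582 to 804 counts, varied much less than either transcript. A further transcript, ENST00000529422.1, held 182 counts in VC1, 64 in VC2, 56 in OE1 and 108 in OE2.

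*STAT2* (ENSG00000170581.9), which carries the transactivation domain of ISGF3, lies on chromosome 12 (minus strand, 56735381 to 56753987). It had 2419 counts in VC1, 2536 in VC2, 3191 in OE1 and 3758 in OE2. The mean was 106 ± 2.86 CPM in VC and 128.5 ± 1.95 CPM in OE (SD, n = 2 each), without overlap. Its log2 fold change was 0.28 (SE 0.0733, unadjusted p = 0.0212, edgeR adjusted p = 0.169), and 0.25 to 0.30 when any 1 library was omitted. The replicates of a condition differed by at most 1.04-fold, the conditions by 1.21-fold. From 91.0% to 92.8% of the counts were on ENST00000556539.1, a transcript of 3278 nt for which the annotation defines no coding sequence, and the MANE Select transcript ENST00000314128.4 held from 3.09% to 4.92%. The division among transcripts was thus alike in the 4 libraries.

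**Figure D3:**
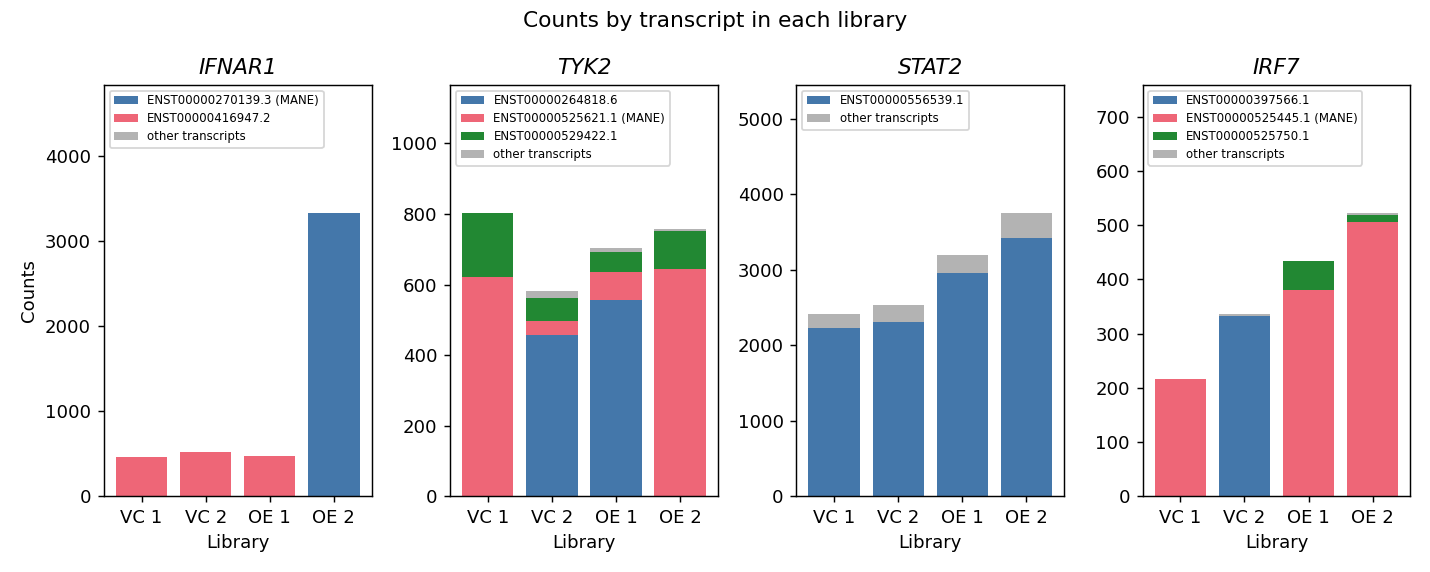
Counts per library for *IFNAR1*, *TYK2*, *STAT2* and *IRF7*, stacked by transcript (colours; grey for transcripts under 10% of the gene's counts in every library; VC, vector control). The leading transcript is the same in all libraries for *STAT2* (ENST00000556539.1), and differs between libraries of the same condition for *IFNAR1* (0 or 3332 counts on ENST00000270139.3), *TYK2* and *IRF7*.

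*IRF9* (ENSG00000213928.4), the DNA-binding subunit of ISGF3, lies on chromosome 14 (plus strand, 24630443 to 24637252). Its row of the table held 24 counts in VC1, 21 in VC2, 5 in OE1 and 8 in OE2, or 1.03, 0.894, 0.199 and 0.277 CPM. Both OE libraries were below both vector control libraries. This gave a log2 fold change of -1.99 (SE 0.417, unadjusted p = 0.0104, edgeR adjusted p = 0.128). None of these counts were on the MANE Select transcript ENST00000396864, which had 0 counts in every library. They were on ENST00000560542.1, with 20 and 9 counts in the vector control and 0 in the OE libraries, and on ENST00000561412.1, with 4, 12, 5 and 8 counts. The former is annotated as a target of nonsense-mediated decay and the latter as a retained intron. The lower value thus came from ENST00000560542.1.

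The exons of *IRF9* are shared with a readthrough gene (ENSG00000259529.1), which starts in the neighbouring gene *RNF31* and ends in *IRF9*. RNF31 is a ubiquitin ligase of the linear ubiquitin assembly complex. In the annotation used here, which holds a later version of it, the readthrough transcript ENST00000558468 lies from 24616757 to 24635661, has 29 exons and 5574 nt, and covers 93.1% of the bases of the *IRF9* MANE Select transcript. Of its bases, 62.0% lie on *RNF31* exons and 27.1% on those of *IRF9*. It had 585 counts in VC1, 646 in VC2, 834 in OE1 and 889 in OE2. The mean was 26.3 ± 1.68 CPM in VC and 32.0 ± 1.77 CPM in OE (SD, n = 2 each), and the log2 fold change was 0.28 (SE 0.111, edgeR adjusted p = 0.273).

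Summed with this readthrough gene, *IRF9* had 609 counts in VC1, 667 in VC2, 839 in OE1 and 897 in OE2, and both OE libraries were above both vector control libraries. The sum had a log2 fold change of 0.24 (SE 0.108, unadjusted p = 0.0944, edgeR adjusted p = 0.317), opposite in direction to the *IRF9* row. Nearly all counts of the sum were those of the readthrough gene, so its value is not a measured direction of *IRF9* itself. How many of the readthrough counts came from reads on *IRF9* exons cannot be read from a table of counts per transcript. *RNF31* itself had 831 counts in VC1, 698 in VC2, 931 in OE1 and 1073 in OE2 (log2 fold change 0.18, edgeR adjusted p = 0.497). Whether the row of *IRF9* alone gives the level of *IRF9* exons in these libraries was not tested.

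**Figure D4:**
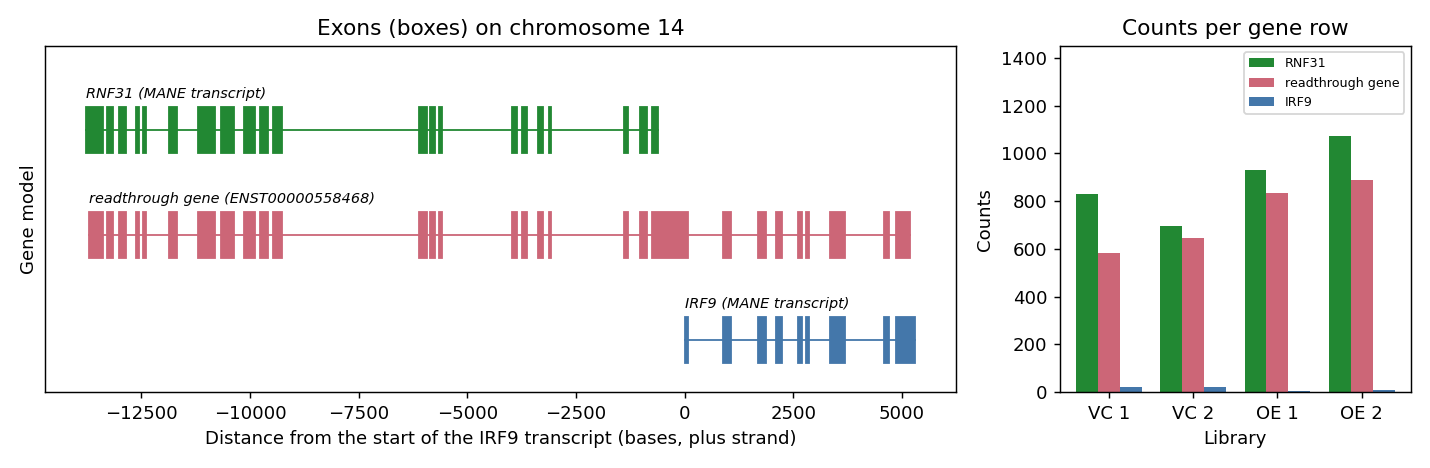
Left, exons of *RNF31*, of the readthrough gene and of *IRF9*, by distance in bases from the start of the *IRF9* MANE Select transcript. Right, counts of the 3 gene rows in each library (VC, vector control), from 5 to 24 for *IRF9* and from 585 to 889 for the readthrough gene.

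Promoters from RefSeq (GRCh38.p14, from 250 bases before to 50 bases after the start) were given for 7 of the 9 genes, in 11 windows, and not for *IFNAR2* and *IRF7*. They were searched on both strands for the ISRE core, written as GAAA, any 2 bases and GAAA (TTTC, any 2 bases and TTTC on the other strand), and for the gamma-activated site (GAS), written as TTC, any 3 bases and GAA, to which STAT dimers bind and which reads alike on both strands. The ISRE core was in 0 of the 11 windows, against 3.57% of all 35116 promoters. The GAS was in 2 of them, against 7.66% of all promoters. Whether each window lies at the start of the transcript that held the counts was not tested, for *SOCS3* as for the others. It began 63 bases before the start of *IRF9* and 11 bases after the start of *IL10RB*. The 250 bases before the start of *IRF9* (plus strand, chr14:24161015-24161264 of GRCh38.p14) are shown because the counts of *IRF9* and of the readthrough gene differed in direction and this is the stretch from which *IRF9* alone would be transcribed. Capitals mark the GAS match.
IRF9: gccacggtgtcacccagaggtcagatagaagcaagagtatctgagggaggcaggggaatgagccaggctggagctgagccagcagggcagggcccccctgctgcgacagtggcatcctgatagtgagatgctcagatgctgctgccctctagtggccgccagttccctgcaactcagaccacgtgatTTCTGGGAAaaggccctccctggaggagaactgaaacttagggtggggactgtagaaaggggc
A match of letters is no evidence that a factor was bound there.

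*IRF7* (ENSG00000185507.15), which amplifies the production of interferon, lies on chromosome 11 (minus strand, 612553 to 615983). It had 217 counts in VC1, 336 in VC2, 433 in OE1 and 523 in OE2, or 9.32, 14.3, 17.3 and 18.1 CPM. OE1 and OE2 were both above VC1 and VC2, but the latter differed 1.53-fold from each other, as much as the conditions did. The log2 difference was 0.58 (SE 0.252, unadjusted p = 0.0865, edgeR adjusted p = 0.305) and did not pass. It was 0.30 without VC1 and 0.92 without VC2. The MANE Select transcript ENST00000525445.1 held all 217 counts of VC1 as well as 381 in OE1 and 505 in OE2. In VC2 it held 0 counts, and ENST00000397566.1 held 333 of the 336. ENST00000525750.1, annotated as a retained intron, held 52 counts in OE1, 12 in OE2 and 0 in the vector control libraries. With the leading transcript alone, the log2 fold change was 1.81 with a standard error of 2.6.

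*SOCS3* (ENSG00000184557.3), an inhibitor of JAK signalling that STAT3 is known to induce, lies on chromosome 17 (minus strand, 76352859 to 76356158). It had 2393 counts in VC1, 2401 in VC2, 1951 in OE1 and 2361 in OE2. Scaled to library size, it measured 102.5 ± 0.414 CPM in VC and 79.7 ± 2.74 CPM in OE (SD, n = 2 each). Both OE libraries were below both vector control libraries, by more than the spread between replicates. A log2 fold change of -0.36 (SE 0.079, unadjusted p = 0.0117, edgeR adjusted p = 0.134) was found, and -0.40 to -0.33 when any 1 library was omitted. All counts of *SOCS3* were on its MANE Select transcript ENST00000330871.2, so that no shift between transcripts entered this value.

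Shifts of the leading transcript also occurred outside the chain. Among 13097 tested genes with at least 2 listed transcripts and 20 counts in every library, the leading transcript was not the same in all 4 libraries in 22.8%. Of the 8 genes of the chain that met this minimum, it was not the same in 3 (*IFNAR1*, *TYK2* and *IRF7*). Between the OE libraries it differed in 13.2% of genes and between the vector control libraries in 13.1%. Among the 470 genes that, like *IFNAR1*, were apart by over 4-fold in OE1 and OE2, the leading transcript differed between them in 50.6%, against 11.8% of the remaining genes. The MANE Select transcript had 0 counts in all libraries in 31.9% of the 11521 genes with such a transcript among those above the same minimum, and in 1 of the 8 genes of the chain above it (*IFNAR2*). *IRF9*, which is below the minimum, also had 0 counts on it. A MANE Select transcript that the deposited counts do not list was taken as 0 here. The share therefore mixes listed transcripts without counts and transcripts that were not listed.

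Levels were compared between genes per length, as CPM per kilobase of the MANE Select transcript, which is not always the transcript that held the counts. In the vector control, *SOCS3* was highest, at 37.6 and 37.4 CPM per kilobase. *IL10RB* (25.6 and 27.5), *JAK1* (mean of both 24.9) and *STAT2* (23.6 and 24.5) followed and overlapped with their neighbours in that order. *TYK2* (8.14 and 5.84 CPM per kilobase) and *IRF7* (4.85 and 7.44) overlapped at a lower level. *IFNAR1* was at 3.29 and 3.65 and *IFNAR2* at 1.93 and 2.48 CPM per kilobase. The MANE Select transcripts of both held 0 counts in these libraries. Per kilobase of the 1389 nt transcript that held its counts, *IFNAR2* was at 5.66 and 7.26 CPM, which overlapped with *TYK2* and *IRF7*, and the place of *IFNAR1* in the order is not known without the length of its transcript. *STAT2*, per kilobase of its leading transcript, was at 31.7 and 32.9 CPM, above *IL10RB* and *JAK1*. *IRF9* was lowest by its own row, at 0.634 and 0.55. In the OE libraries *STAT2*, at 28.9 and 29.5 CPM per kilobase, overlapped with *SOCS3* at 28.4 and 29.9. Per kilobase of its leading transcript it was at 38.8 and 39.6 CPM, above *SOCS3*.

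The other genes of the pathway were described by lists. Among 11 ligands, 7 had 0 counts in all libraries, which allows up to 3 counts or 0.104 to 0.129 CPM per library. *IFNB1*, the interferon first made by most infected cells, had 0 counts in VC1, 2 in VC2, 13 in OE1 and 0 in OE2, and *IFNA1* had at most 11 counts. The only ligand that was tested was *IFNE*, an epithelial type I interferon, with 244 counts in VC1, 247 in VC2, 142 in OE1 and 207 in OE2. Its log2 fold change was -0.71 (SE 0.178, unadjusted p = 0.0185, edgeR adjusted p = 0.158), with both OE libraries below both vector control libraries.

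Of 10 other receptor chains, 8 were tested and 0 passed an adjusted p under 0.05. At an unadjusted p under 0.05, 0 were higher and 1 was lower, with a median log2 fold change of -0.08. The lower gene was *OSMR*, the oncostatin M receptor, whose signal is known to induce *SOCS3*. It had 8262 counts in VC1, 8429 in VC2, 6664 in OE1 and 7871 in OE2 (log2 fold change -0.41, standard error 0.0536, edgeR adjusted p = 0.0784). Its partner chain *IL6ST*, the gp130 chain, had a log2 fold change of 0.24 (edgeR adjusted p = 0.417), and *LIFR*, the receptor for leukemia inhibitory factor, had 0.21 (adjusted p = 0.396). *IFNGR1* had -0.09, *IL6R* -0.08 and *IL20RB* 0.21, each with overlap between the conditions.

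Of the 7 other kinases and STATs described here, 6 were tested and 0 had an unadjusted p under 0.05 in either direction (median log2 fold change -0.18). *STAT3*, the STAT of gp130 receptors, had a log2 fold change of -0.04 and *JAK2* of 0.09. *JAK3* had -0.39, *STAT5A* -0.32 and *STAT5B* 0.13. Of the 6 other IRFs described here, 4 were tested and 0 had such a p, with a median of 0.04. *IRF4* and *IRF8*, which are mainly factors of blood cells, had 0 counts in all libraries. *IRF1* had a log2 fold change of -0.02, *IRF2* of 0.10, *IRF3* of -0.13 and *IRF5* of 0.56.

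Of 16 negative regulators other than *SOCS3*, 15 were tested and 0 had an unadjusted p under 0.05 in either direction, with a median log2 fold change of 0.0. *SOCS1*, the main SOCS protein of interferon receptors, had 301 counts in VC1, 388 in VC2, 295 in OE1 and 278 in OE2 (log2 fold change -0.46, edgeR adjusted p = 0.309). *USP18*, which blocks JAK1 at IFNAR2 and is an interferon target, had 77 counts in VC1, 45 in VC2, 108 in OE1 and 75 in OE2 (log2 fold change 0.40, adjusted p = 0.652). The phosphatases *PTPN1*, *PTPN2* and *PTPN11* had log2 fold changes of 0.0, 0.32 and -0.05, and the *PIAS* genes from -0.24 to 0.05. *CISH* had -0.15, *SOCS4* 0.06, *SOCS6* -0.06 and *SOCS7* 0.13.

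**Figure D5:**
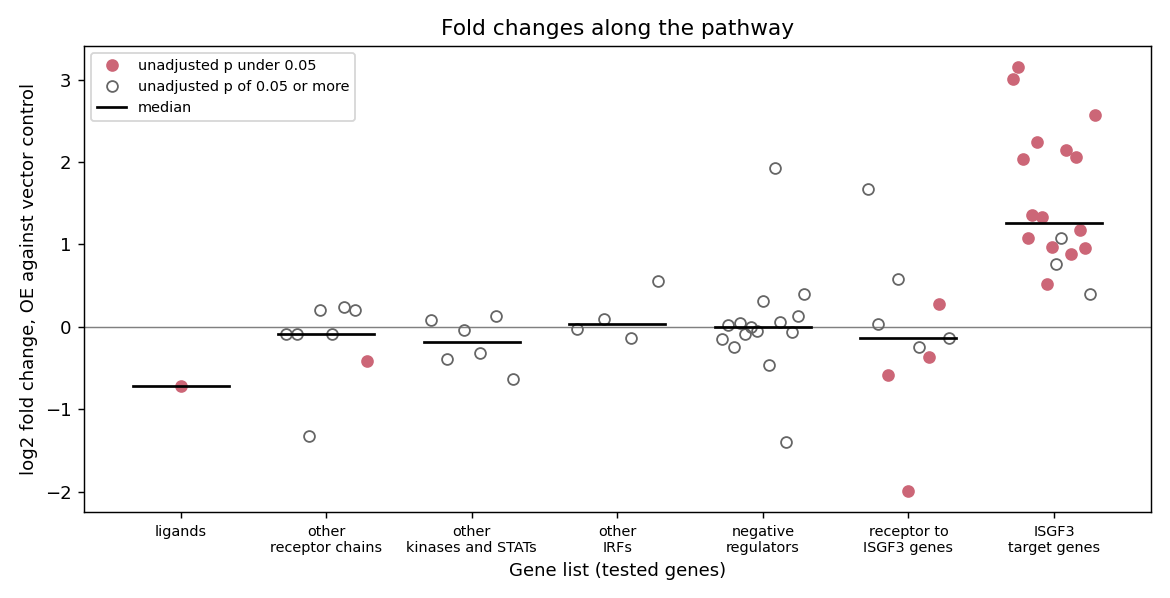
Log2 fold change of OE against vector control for each tested gene of the lists (filled, unadjusted p under 0.05; line, median of the list). The receptor to ISGF3 genes have a median of -0.13 (0.04 with *IRF9* summed with the readthrough gene, which is not drawn) and the 18 ISGF3 target genes of 1.26.

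The target genes of ISGF3 lay elsewhere. Of 18 target genes, all tested, 15 were higher and 0 lower at an unadjusted p under 0.05, and 2 were higher at an adjusted p under 0.05 (median log2 fold change 1.26). This list was known from earlier results to be higher in these libraries and is given only for comparison with the 9 genes, for which the same median was -0.13, or 0.04 with *IRF9* summed with the readthrough gene. Without overlap between the conditions, *IRF7* (0.58), *STAT2* (0.28) and the sum for *IRF9* (0.24) had the direction of the targets and *IL10RB* (-0.58), *SOCS3* (-0.36) and *JAK1* (-0.24) the opposite one, an even division like the 27.8% higher and 27.6% lower of all genes. By its own row *IRF9* (-1.99) had the opposite direction to the targets, which gives 2 higher and 4 lower.

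Genes most like *IRF9* and *SOCS3*, which had the smallest unadjusted p of the 9 genes, were sought by the root mean square distance of log2 CPM centred on the gene's own mean over the 4 libraries. For *SOCS3* they were *AC098614.2*, *FICD* and *C16orf87*, at distances of 0.00836, 0.00882 and 0.0094, among 8083 genes with a mean within 4-fold. *FICD* had 675 counts in VC1, 681 in VC2, 549 in OE1 and 675 in OE2. For *IRF9* they were *BCHE*, *SVEP1* and *SERPINA6*, at distances of 0.107, 0.115 and 0.125, among 5161 genes. *BCHE* had 50 counts in VC1, 39 in VC2, 13 in OE1 and 16 in OE2. With 4 libraries, such likeness is a description of these libraries only.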

How the data were processed

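Whole-number counts per Ensembl transcript, without normalization, were deposited by the authors for 4 libraries (196520 transcripts). Per the study's methods, FastQC and Trimmomatic were used for quality control and trimming, and Bowtie2 for mapping to the hg19 build. The submitters' processing notes name Bowtie2 2.0.4, Picard 2.21.6, StringTie 2.1.6 and DESeq2. The tool that made the counts, the annotation release and the use of strand are not given in the sources used here. If counts were estimated per transcript, reads of overlapping transcripts and genes could be moved between them.

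Counts were summed per gene, filtered with filterByExpr, normalized by TMM and tested with edgeR 4.0.16 (quasi-likelihood, two-sided, Benjamini-Hochberg) in R 4.3.3, 2 libraries against 2, without covariates. Alternatives were DESeq2 1.42.0, limma-voom (limma 3.58.1), RLE or upper-quartile scaling, other filters, a replicate block, leaving out each library, the leading transcript alone, and sums with same-strand genes whose exons overlap. Limma-voom with robust variances was added after the values were seen. The scripts were tested on simulated counts. The limit for 0 counts (3 counts) reflects counting error alone, as no molecular identifiers are described. Standard errors are those of edgeR's fit and include the spread between libraries.

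The members, lists and tests were chosen with earlier results of these data known. All 9 genes were named, genes whose exons overlap theirs, other pathway genes where their mean was at least 1 CPM (target genes of ISGF3 as counts only), transcripts where they held at least 10% of a gene's counts in any library, and for the pair of members with the smallest unadjusted p the 3 most similar genes. *RNF31*, the marker genes, and the ligands and IRFs named below 1 CPM were chosen after their values were seen. Some genes of the pathway lists are not reported here and were left out of the counts and medians of those lists. Positions, exons and lengths were read from GENCODE annotation lifted to GRCh37, the files' build, and promoters from RefSeq (GRCh38.p14). Figures were drawn with matplotlib 3.10.9.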

Additional observations from a re-analysis of the deposited data

How the results depend on the processing

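The number of genes past the study's thresholds (adjusted p below 0.01 with a log2 fold change beyond 0.5 in either direction) was 0 in edgeR's test (4269 genes had an unadjusted p under 0.05), and stayed 0 with RLE or upper-quartile normalization, limma-voom, a mean of at least 10 counts, the replicate block and each library left out (from 0 to 0). It was 1800 with DESeq2's Wald test, 9 with a minimum of 1 count in total, 41 with robust limma-voom and 122 at an adjusted p under 0.05 alone. The cause was not tested. Of 124 values of the 9 genes under these alternatives, 118 kept their direction and their side of the thresholds, 5 reversed and 1 newly passed, which was *IL10RB* with DESeq2 at -0.58. The reversed values were *IRF9* summed with overlapping genes at 0.24, since the sum adds the readthrough counts, and 4 values with a library left out. With a library left out, *IFNAR1* lay between -0.17 and 2.45, *IFNAR2* between -0.13 and 0.23, *TYK2* between -0.35 and 0.13 and *IRF7* between 0.30 and 0.92. *IFNAR1* and *IRF9* gave no value with the leading transcript alone, which did not pass the expression filter. That of *IFNAR1* had counts in OE2 only, and that of *IRF9* had few counts. Under the replicate block, *IFNAR1* was at 1.15 and *IL10RB* at -0.58, the number of genes called was 0 and no call among the 9 genes differed. The correlation of replicate 1 minus replicate 2 between the conditions was -0.0264 over 15820 genes, so no pairing by replicate number was seen, which does not exclude one. The *IRF9* row held at most 24 counts per library.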

Other observations

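*SOCS5*, *SOCS2* and *IRF3* were chosen after their values were seen, for libraries of the same condition that differed, as those of other genes of the lists also did. *SOCS5* had 6068 counts in VC1, 5534 in VC2, 4765 in OE1 and 1 in OE2. The vector control counts were all on ENST00000306503.5, which had 0 and 1 counts in the OE libraries, while ENST00000394861.2 held all 4765 counts of OE1. *SOCS2*, a growth hormone inhibitor of the same family, had 31 counts in VC1, 359 in VC2, 587 in OE1 and 1153 in OE2, and nearly all of them were on ENST00000340600.2 (31, 355, 573 and 1141 counts). *IRF3*, the factor that starts interferon production, had 707 counts in VC1, 1303 in VC2, 1289 in OE1 and 783 in OE2. In the libraries with the higher totals, ENST00000597636.1 held 1154 and 1229 counts, against 0 in the others, where ENST00000309877.7 held 645 and 674. The log2 fold changes of these genes were -1.39 for *SOCS5* (SE 2.6), 1.93 for *SOCS2* (SE 1.21) and -0.13 for *IRF3* (SE 0.467), and 0 of the 3 were below an unadjusted p of 0.05 by edgeR.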
